A study of Arabidopsis thaliana with 14 samples.

Results

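The transcripts described here are the expressed non-coding RNAs of Arabidopsis rosettes during cold priming and triggering. They are the rows of the deposited expression table whose gene name contains ncRNA and whose mean over the 14 libraries is at least 5 FPKM, a count of fragments scaled to transcript length and library size. Of 27861 rows listed there, 2074 carry such a name, and 114 of these reached the mean, beside 11628 rows of any kind. The study took non-coding RNAs out of its selection of priming-regulated genes. The members were thus chosen by their mean FPKM, and their level is a description only.

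All libraries were made from wild-type Col-0 plants, 28 days old at priming. Primed plants (P) had spent 24 h at 4 °C and were then kept at 20 °C for 5 days, and control plants (C) stayed at 20 °C. Primed and control plants were harvested before any trigger (P0 and C0) and after 30, 60 and 120 min of a trigger. The trigger was cold at 4 °C (P30C and C30C, P60C and C60C, P120C and C120C) or high light of 800 µmol m-2 s-1 of photons, against 100 to 110 in the growth light (P30L and C30L, P60L and C60L, P120L and C120L). Each library holds whole rosettes of at least 5 pooled plants and stands alone in its condition, so the spread between plants of a condition is not known and no p-value is given.

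Plant non-coding RNAs fall into several classes. Precursors of microRNAs (miRNAs) fold into hairpins that are cut into short guides, TAS transcripts are cut by a miRNA and turned into trans-acting small interfering RNAs, small nucleolar RNAs (snoRNAs) guide modification of other RNAs, and natural antisense transcripts are read from the strand opposite to a coding gene. In leaves several of these RNAs are known to act in development and in stress responses. The libraries were made from RNA captured on oligo(dT) beads and then depleted of rRNA, so what was counted are long precursors and transcripts, not the short RNAs cut from them.

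The short RNAs of the members whose function is best known are shown here to identify them, with bases 2 to 8, the seed that pairs first with a target, in capitals. They were read from the TAIR10.1 genome at the positions that RefSeq gives.
miR163, chr1:24884359-24884382, plus strand: uUGAAGAGgacuuggaacuucgau
miR850, chr4:7845756-7845777, plus strand: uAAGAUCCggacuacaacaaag
miR863-5p, chr4:7846644-7846664, plus strand: uUAUGUCUuguugaucucaau
miR863-3p, chr4:7846835-7846855, plus strand: uUGAGAGCaacaagacauaau
The 4 seeds differ from each other. miR163 is known for its targets among methyltransferase genes.

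The TAS members are set apart by their miRNA sites. In TAS3 the downstream site is known to be cut and the upstream site to be bound without cutting. The sites below are the windows of each transcript with the fewest mismatches to the reverse complement of miR390 (TAS3) or miR173 (TAS1B, TAS1C and TAS2), with the bases that pair with the miRNA seed in capitals. In every site all 7 seed bases pair.
TAS3, upstream site, chr3:5862099-5862119, plus strand: gguguuauccuauCUGAGCUu
TAS3, downstream site, chr3:5862343-5862363, plus strand: uugucuaucccucCUGAGCUa
TAS1B, chr1:18549660-18549681, minus strand: gugauuuuucucaaCAAGCGAa
TAS1C, chr2:16537890-16537911, minus strand: gugauuuuucucuaCAAGCGAa
TAS2, chr2:16539991-16540012, minus strand: gugauuuuucucucCAAGCGAa
The 2 miR390 sites of TAS3 start at bases 609 and 853 of its 947 and differ from perfect pairing at 5 bases each, of which 4 in the upstream site and 0 in the downstream site are G and U pairs. The miR173 sites have 3 mismatches in TAS1B and 2 each in TAS1C and TAS2.

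The depth of the libraries, read from the steps between low values, was about 24.5 to 38.8 M fragments. The leaf genes RBCS1A, CAB1, RCA and CA1 lay between 2382 and 25777 FPKM in all libraries, whereas the root hair genes EXPA7 and SHV2 reached 0.07 FPKM and the petal gene AP3 reached 0.06 FPKM at most. The root gene PYK10 lay between 11.3 and 27.4 FPKM and the flower gene AG between 0.85 and 2.66 FPKM. The 114 members together held 0.505% to 0.602% of the summed FPKM. Some libraries stood apart for the members. C60C and C60L had the lowest median among the members that share no exon with another gene, and P30L was the highest library for 15 members (13.3%, all rows 4.50%), both mitochondrial rRNAs, AT5G01815, AT5G03285, AT3G03165 and AT1G67365 among them. In 9 members both C0 and P0 were under 5 FPKM, so that they reached the mean through triggered libraries and a response to a trigger is partly set by how they were chosen. These are AT3G07365, AT5G01815, AT4G08785, AT3G15536, AT3G03165, AT5G53048, AT1G67365, AT2G07495 and AT2G30362.

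Annotation sets 2 kinds of members apart. By RefSeq, 71 are long non-coding RNAs, 34 other non-coding RNAs, 4 snoRNAs, 3 miRNA precursors and 2 mitochondrial rRNAs. An exon shared with another annotated gene was found in 74 members, and 40 shared none. Of the 74, 50 overlapped only genes on the opposite strand, 5 only genes on the same strand and 19 both. At least 50% of the exon bases were shared in 54 members and all of them in 28. The gene with the longest overlap was protein coding in 69. Whether the counting used the strand is not given in the sources used here, and without it reads of a transcript and of its antisense partner cannot be told apart. Members with a shared exon are therefore given beside their partner.

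The members were mostly short and of low to moderate level. The median transcript had 782 bases, against 1709 bases for all rows with a mean of at least 5 FPKM. A single exon was annotated for 73. The median of the mean levels was 11.96 FPKM (all rows 16.1 FPKM), and the median member was covered by about 257 fragments in a library (all rows 825). With fewer fragments a ratio of members is less precise than a ratio of the average gene. In 48 members the mean was under 10 FPKM, in 38 it was at least 20 and in 8 at least 100 FPKM. The rows nearest the threshold were AT2G30362 with 5.01 FPKM just inside and AT4G13505 with 4.98 FPKM just outside.

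The 8 highest members led the rest by level. AT1G09927, which shares an exon with another gene, had the highest mean with 623 FPKM. AT3G22121 (414 FPKM, chr3:7794956-7796327) lies antisense to CWLP, a cell wall protein gene that itself was listed at a mean of 0.896 FPKM. AT4G13495 (336 FPKM) is the locus that holds the hairpin of miR850 and shares 178 bases with that of miR863. AT1G25098 (289 FPKM, chr1:8812695-8815264) lies in a stretch of chromosome 1 with near-identical copies. It has 9 stretches of at least 95% identity and 100 bases elsewhere, so its reads may be shared with the copies. AT1G25098 had 352 FPKM in C0 and fell past the threshold at each time of cold in control plants, to 224, 204 and 193 FPKM. AT5G02095 (141 FPKM, antisense to EMB3136), AT4G03585 (132 FPKM, antisense to CYP86A2, a fatty acid hydroxylase gene) and AT1G08477 (119.7 FPKM, antisense to APR2 of sulphate reduction) follow. AT3G06125 (110.0 FPKM, chr3:1848848-1850596) was the highest member with no shared exon.

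A list of 17 non-coding RNAs of known function was compared with the members. Of the 16 with a row, 4 were members, namely TAS3, TAS2, TAS1C and TAS1B. IPS1, the mimic of a phosphate-starvation miRNA target, had a mean of 0.0407 FPKM, and the drought-related DRIR had 0.0779 FPKM. The auxin-related APOLO reached a mean of 45.5 FPKM, but its row is not named ncRNA and it is no member.

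The cold response of control plants asks which transcripts moved within 2 h at 4 °C. A ratio was called past the threshold at 1.5-fold, in FPKM with no pseudocount, for members with at least 0.5 FPKM in C0 and P0. This filter removed 1 member, AT3G07365, and left 113. Past the threshold at 1 or more times were 20 members on the higher side (17.7%) and 41 on the lower side (36.3%), 2 of them in both lists at different times. Over all 11602 rows with a mean of at least 5 FPKM and the same filter the shares were 9.91% higher and 9.77% lower. In whole rosettes, less RNA per cell and fewer cells of a type cannot be told apart. The share of members on the lower side was thus larger than that of all rows, and the median log2 ratio was -0.14 after 30 min, -0.21 after 60 min and -0.12 after 120 min (all rows -0.10, -0.06 and -0.07). By time, 13 members were higher and 23 lower in C30C/C0 (all rows 3.65% and 3.03%), 9 and 25 in C60C/C0 (5.92% and 3.31%), and 15 and 30 in C120C/C0 (7.63% and 7.41%).

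In high light of control plants 29 members (25.7%) were past the threshold on the higher side and 47 (41.6%) on the lower side, 7 of them in both at different times. All rows gave 17.0% and 19.3%. Among the 40 members with no shared exon 4 were higher and 14 lower in cold, and 11 were higher and 17 lower in light. The median log2 ratio of the 113 was -0.04, -0.19 and -0.10 after 30, 60 and 120 min of light (all rows -0.05, -0.03 and -0.05). By time, 15 members were higher and 18 lower in C30L/C0 (all rows 3.72% and 5.6%), 15 and 31 in C60L/C0 (9.91% and 9.47%), and 18 and 28 in C120L/C0 (13.2% and 15.8%). In primed plants, with P0 as the base, 22 members were higher and 25 lower in cold (all rows 12.2% and 7.57%), and 33 were higher and 35 lower in light (all rows 19.0% and 13.9%).

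**Figure D1:**
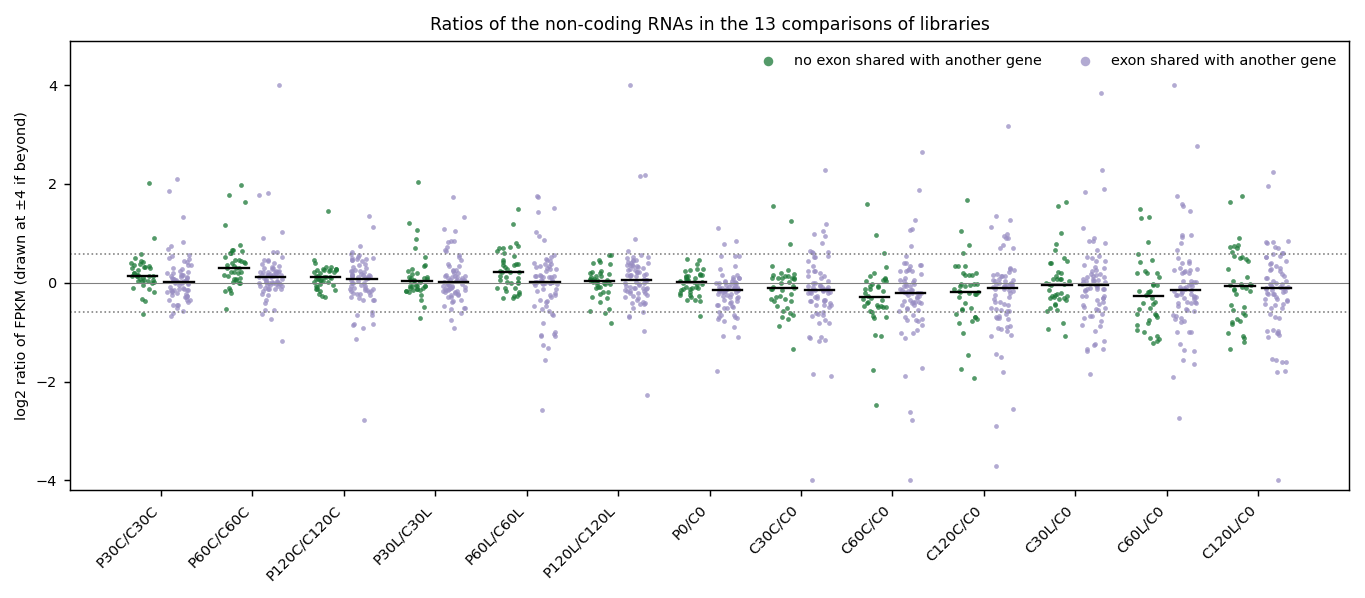
Log2 ratios of FPKM of the 113 members in the 13 comparisons of libraries, a point per member, for members with no shared exon (green, 40) and with a shared exon (purple, 73). Black bars are medians and dotted lines 1.5-fold, values beyond ±4 are drawn at ±4, ratios with a library at 0 are left out, and the green medians of P60C/C60C and P60L/C60L lie above 0 while those of C60C/C0 and C60L/C0 lie below it.

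By their control responses the 113 members were sorted into groups, with a member called higher or lower in a trigger if it was past 1.5-fold in that direction at 2 or more of the 3 times and never in the other. Higher in cold only were 6 (5.31%, all rows 2.08%), in light only 5 (4.42%, all rows 4.62%) and in both 5 (4.42%, all rows 2.43%). The share higher in light only was thus near that of all rows. Lower in cold only were 12 (10.6%, all rows 1.43%), in light only 13 (11.5%, all rows 6.52%) and in both 10 (8.85%, all rows 1.38%). Lower in cold and higher in light were 2 (1.77%, all rows 0.276%), AT5G03285 and AT3G03165, the latter under 5 FPKM in both C0 and P0. None was the reverse, which is near the share of all rows (0.396%). The other 60 (53.1%) fell in no group, as did 80.9% of all rows. Only means not called in the other trigger under this rule. AT5G01815 thus counts for cold only, although it was past 1.5-fold higher at 30 and 60 min of light and lower at 120 min. AT2G08665 counts for light only, with ratios past 1.5-fold in both directions in cold.

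Of the 3 miRNA precursors MIR163 was the one that rose in cold. MIR163 (chr1:24884066-24884396, plus strand, 331 bases) had 10.99 FPKM before the trigger and 26.1, 33.3 and 22.8 FPKM at the 3 times of cold in control plants, log2 ratios of 1.25 (counting interval 0.87 to 1.64), 1.6 and 1.05. All intervals of this kind are 95% and cover the counting of fragments only. In light the precursor had 11.6, 14.8 and 9.84 FPKM in control plants, which stayed within 1.5-fold of C0. The highest value in light, 14.8 FPKM, lay below the lowest in cold, 22.8 FPKM.
MIR163 was high in cold in primed plants as well. Primed plants had 8.6 FPKM before the trigger and 33.5, 30.9 and 26.5 FPKM in cold, and each P/C ratio in cold stayed within 1.5-fold. Primed plants in light had 14.1, 13.1 and 7.5 FPKM.

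AT4G13495 and MIR850, whose hairpin lies within it on chromosome 4, fell under both triggers. AT4G13495 (chr4:7842967-7846774) had 513 FPKM at the start and 396, 359.9 and 311 FPKM at the 3 times of cold in control plants, and 282, 219 and 260.1 FPKM in light. The fall in light was past the threshold at every time (log2 ratio -1.23 (counting interval -1.28 to -1.19) at 60 min), that in cold at 120 min only (-0.72). The MIR850 hairpin (chr4:7845707-7845927), which lies in an intron of this locus, had 50.7 FPKM at the start, 35.5, 24.5 and 18.4 FPKM in cold and 23.9, 22.3 and 22.2 FPKM in light. MIR850 was thus below its start in all 6 triggered control libraries, and past the threshold in each but C30C. MIR863 (chr4:7846597-7846899) shares exon bases with AT4G13495 on the same strand, so that reads cannot be assigned to one of them with certainty. MIR863 was listed at 4.25 to 10.8 FPKM in the 14 libraries. In control plants it had 8.65 FPKM at the start and 7.13, 5.95 and 5.41 FPKM in cold. In light it had 9.36, 4.96 and 7.99 FPKM, so that it was above its start at 30 min.
In primed plants AT4G13495 had 476 FPKM before the trigger, 440.0, 402 and 347 FPKM in cold and 257, 196 and 240.5 FPKM in light. These values were above the control values at each time of cold and below them at each time of light, but no P/C ratio reached 1.5-fold. MIR850 in primed plants had 44.8 FPKM before the trigger, 36.2, 24.8 and 17.7 FPKM in cold and 23.2, 19.6 and 29.2 FPKM in light.

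TAS3, whose small RNAs target auxin response factor transcripts, was the most abundant TAS transcript and fell in light alone. TAS3 (chr3:5861491-5862437) had 46.8 FPKM at the start, 49.2, 47.9 and 39.8 FPKM in cold and 31.97, 21.5 and 22.2 FPKM in light in control plants. The log2 ratio to C0 in light was -0.55 at 30 min, within 1.5-fold, and past it with -1.12 at 60 min and -1.08 (counting interval -1.23 to -0.93) at 120 min. That in cold never passed 1.5-fold. Primed plants had 51.8 FPKM before the trigger, 59.1, 55.9 and 47.5 FPKM in cold and 22.7, 24.9 and 23.2 FPKM in light. The 8 libraries before the trigger and in cold ranged from 39.8 to 59.1 FPKM and did not overlap with the 6 light libraries, which ranged from 21.5 to 31.97 FPKM.

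The TAS members cut by miR173 moved less and differently. TAS2 (chr2:16539384-16540417) had 7.79 FPKM at the start and 4.26, 4.83 and 4.67 FPKM in cold in control plants, past the threshold on the lower side at all 3 times, and 6.36, 7.56 and 10.6 FPKM in light. TAS1C (chr2:16537288-16538277), 1106 bases from TAS2 on the same strand, had 6.72 FPKM at the start, 6.07, 6.82 and 6.42 FPKM in cold and 3.91, 4.25 and 7.4 FPKM in light, with the threshold passed at 30 and 60 min of light. TAS1B stayed between 3.85 and 6.34 FPKM in the 14 libraries. The neighbours TAS2 and TAS1C, which share the miRNA that cuts them, thus passed the threshold under different triggers.

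The 4 snoRNA members were at most 290 bases long. AT1G07897, which shares 53.3% of its exon bases with AT1G53541 on the opposite strand, had 10 FPKM in C0 and 21.5, 17.5 and 17.7 FPKM in light, past the threshold at each time, and 37.96 FPKM in P30L, the highest value of the 14. In P0, before any trigger, it already had 17.35 FPKM, and P60L and P120L had 17.69 and 21.28 FPKM. Against P0 the light ratio of primed plants was thus past the threshold at 30 min only. AT1G06463, which shares exon bases with AT-IE of histidine synthesis on the same strand, ranged from 4.29 to 15.4 FPKM, AT5G02565 from 3.43 to 9.7 FPKM and AT5G02575 from 3 to 6.93 FPKM. AT5G02565 and AT5G02575 lie 69 bases apart on the same strand. The median estimated number of fragments per library was 35.6 for AT1G07897 and 42.7 for AT5G02565, so their ratios are coarse.

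Among the other members with no shared exon AT4G36648 rose in light. AT4G36648 (chr4:17280528-17282730, minus strand) had 30.1 FPKM at the start and 31.9, 84.3 and 92.8 FPKM after 30, 60 and 120 min of light in control plants, log2 ratios of 1.49 at 60 min and 1.63 (counting interval 1.55 to 1.71) at 120 min. In cold it stayed between 21.8 and 29.7 FPKM in control plants. Primed plants reached 37.8, 70.3 and 62.2 FPKM in light, with a log2 P/C ratio of -0.58 at 120 min, just within 1.5-fold.
GUT15, known for its unstable transcript and chosen here after its values were seen, had 88.6 FPKM at the start, 58.3, 59.2 and 62.2 FPKM in cold and 73.6, 101 and 90.6 FPKM in light in control plants. GUT15 was past the threshold on the lower side at 30 min of cold only.

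AT5G03285 and AT3G03165 went in opposite directions under cold and light. AT5G03285 (chr5:793514-793717, 204 bases) had 7.68 FPKM at the start, 8.21, 2.26 and 2.01 FPKM in cold and 24.02, 19.4 and 6.58 FPKM in light in control plants. In primed plants it had 9.03 FPKM before the trigger, 10.3, 7 and 5.49 FPKM in cold and 55.2, 43.98 and 9.04 FPKM in light. The primed value was the higher one in all 7 pairs of libraries. The rule that named it asks for the same sign at each time of a trigger, so this is partly set by that choice. Its median estimated number of fragments per library was 36.9, so its ratios are coarse. The P/C ratio was 1.2 (counting interval 0.88 to 1.54) on the log2 scale at 30 min of light and 1.63 (counting interval 0.44 to 2.84) at 60 min of cold.
AT3G03165 (chr3:5380310-5380726) had 4.52 FPKM at the start, 2.7, 0.81 and 1.34 FPKM in cold and 13.3, 11.2 and 4.29 FPKM in light in control plants. It peaked at 30 min of light in primed plants too, at 21.8 FPKM, and was back at 4.44 FPKM at 120 min. AT3G03165 was under 5 FPKM in both C0 and P0 and reached the mean through triggered libraries. Its rise in light is thus partly set by how the members were chosen.

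**Figure D2:**
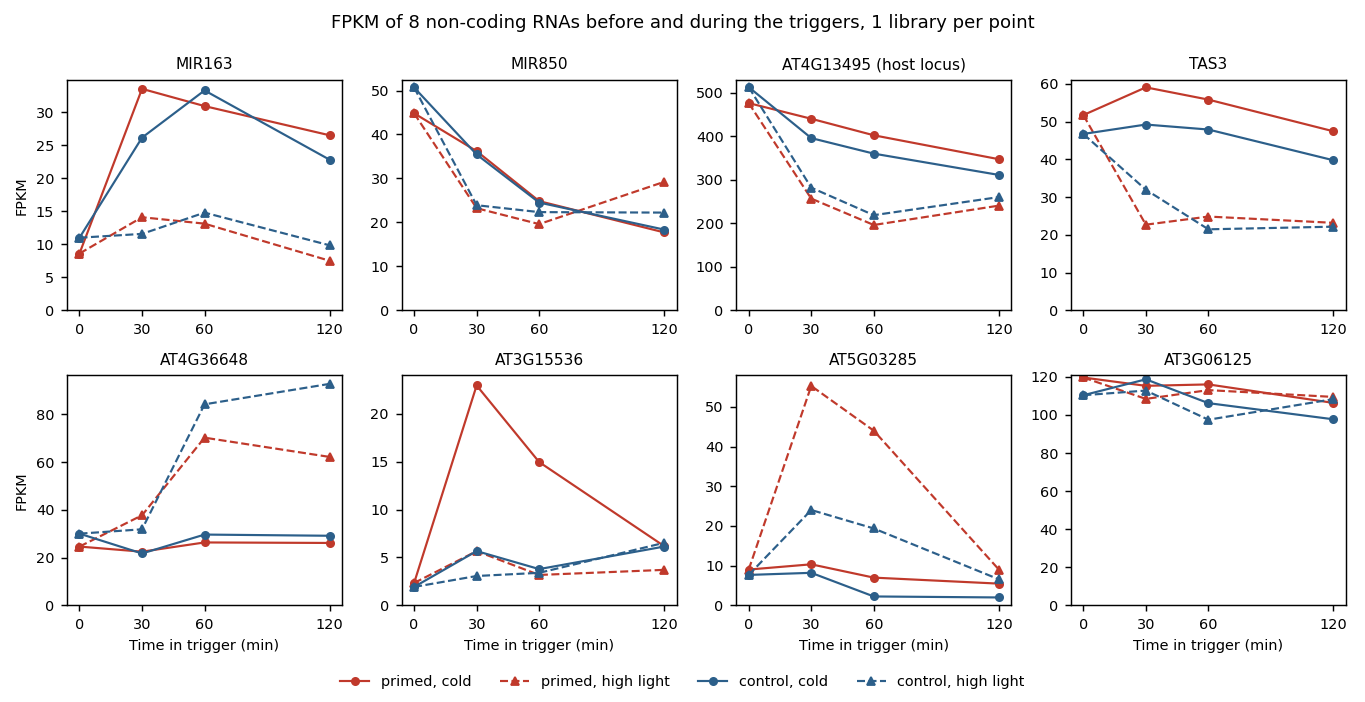
FPKM (y axis, from 0) of 8 members against the time in the trigger (x axis, min) in primed (red) and control (blue) plants, in cold (solid lines, circles) and high light (dashed lines, triangles), with 1 library per point. MIR163 was above 22 FPKM in cold only, TAS3 fell in light only, AT4G36648 climbed to 92.8 FPKM in light, and AT3G15536 was high in primed plants at 30 and 60 min of cold.

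Members with no call in any of the 13 ratios numbered 20 of 113, 6 of them with no shared exon. A call in at least 1 ratio was found for 93 (82.3%), against 41.2% of all rows. The steadiest by their largest ratio was AT3G06125, between 97.5 and 119.6 FPKM in the 14 libraries, followed by AT1G09927 (562 to 722 FPKM), AT2G42485 (13.6 to 16.6 FPKM) and AT4G03585 (106 to 159 FPKM). AT2G42485 has 4 near-identical stretches elsewhere in the genome.

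Before the triggers the comparison of primed with control plants, P0/C0, asks what remained 5 days after the priming cold. Higher in P0 were 3 members (2.65%) and lower were 12 (10.6%), against 0.198% and 2.27% of all rows. Of the 12, 11 belonged to the 73 members with a shared exon and 1, AT4G07815, to the 40 without. The median log2 ratio was -0.15 with and 0.01 without a shared exon. The 3 higher members all share an exon, AT2G08665, AT2G23672 and AT1G07897.
The lower members with the largest ratios were AT4G05910 (3.48 FPKM in P0, 7.42 in C0), AT2G07475 (5.94 and 12.5 FPKM in P0 and C0), AT4G06665 (25.3 and 46.9 FPKM), AT3G09275 (10.7 and 18.3 FPKM), AT2G35859 (6.79 and 11.3 FPKM) and AT1G05523 (3.08 and 5.01 FPKM). Over the 13 calls of members with a listed partner the partner passed the threshold in the same direction in 1, in the opposite direction in 1 and not at all in 11. The opposite case was SKIP6, the partner of AT2G07475, with 10.08 FPKM in P0 and 5.49 FPKM in C0. The share of AT2G07475 in the summed FPKM of this pair was 37.1% in P0 and 69.5% in C0. How the counting divided reads within the pair was not tested. At a 2-fold threshold 1 member was higher and 3 lower.

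During triggering primed and control plants were set against each other time by time, and this P/C ratio is called the priming effect. In cold 27 members (23.9%) were past the threshold on the higher side and 15 (13.3%) on the lower side, 5 of them in both at different times, against 3.2% and 2.65% of all rows. In light 31 (27.4%) were higher and 23 (20.4%) lower, 10 of them in both, against 4.34% and 5.77%. Among the 40 members with no shared exon 10 were higher and 1 lower in cold, and 13 were higher and 3 lower in light. Leaving out the 60 min libraries, an alternative chosen after the data were seen, gave 14 higher and 13 lower in cold, and 18 higher and 13 lower in light.

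At 60 min the members with no shared exon passed the threshold on the higher side only. In P60C/C60C 10 of 40 were past the threshold on the higher side and 0 on the lower, against 1.67% and 2.18% of all rows. Among the 10 is AT3G15536, which reached the mean of 5 FPKM through P30C and P60C. In P60L/C60L 9 were higher and 0 lower, against 1.37% and 3.34%. No library is shared by these 2 ratios, and 4 members, AT2G14878, AT3G05945, AT5G02565 and AT5G03285, were in both lists (40.0% of the first and 44.4% of the second, members chosen after their values were seen). Of all 40 members, 22.5% were in the second list and 25% in the first, so some overlap comes without any link. The overlap was neither tested nor counted over all rows. At 30 min 2 were higher and 1 lower in cold (all rows 1.8% and 0.853%), and 5 higher and 1 lower in light (1.97% and 0.509%). At 120 min 1 was higher and 0 lower in cold (0.353% and 1.04%), and 0 were higher and 2 lower in light (1.66% and 3.51%). With each library scaled to the 8 reference genes of the study the 60 min counts were 5 higher and 1 lower in cold (all rows 0.879% and 3.02%). In light they were 8 higher and 0 lower (all rows 1.00% and 4.35%). With scaling to the median of all rows they were 9 and 0 in cold (all rows 1.48% and 2.26%) and 9 and 0 in light (all rows 1.67% and 3.02%).

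For these members the control libraries at 60 min were low. The median log2 ratio to C0 of these 40 members was 0.08 in P60C and -0.28 in C60C, and -0.05 in P60L and -0.27 in C60L. All rows had medians of -0.03, -0.06, -0.06 and -0.03 in the same 4 libraries. C60L was the lowest of the 14 libraries for 11 of the 40 members (27.5%, all rows 9.52%) and C60C for 5 (12.5%, all rows 5.43%). C120C was low as well, with a median of -0.18, and was the lowest for 5 (12.5%, all rows 6.77%). C120C/C0 was past the threshold on the lower side in 10 of the 40 (all rows 7.41%). In primed plants P120C/P0 was so in 7 (all rows 7.33%). The ratio C60L/C0 was past the threshold on the lower side in 14 of the 40 and C60C/C0 in 8, while P60L/P0 was so in 4 (all rows 9.13%) and P60C/P0 in 1 (all rows 1.84%), shares near those of all rows. The estimated depth was 27.2 M fragments in P60C, 27 in C60C, 32 in P60L and 34.8 in C60L. As each is 1 library, an effect of priming and a difference between single libraries cannot be told apart.
AT2G14878 (chr2:6392167-6393042) shows the pattern. It had 38.7 FPKM in P60C, against 24.7 FPKM in C60C, and 31.8 FPKM in P60L, against 21.04 FPKM in C60L. Before the trigger it had 36.7 FPKM in P0 and 33 FPKM in C0. AT3G05945 had 38.9 FPKM in P60C and 25.7 FPKM in C60C, and 25.9 FPKM in P60L and 15.6 FPKM in C60L.

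**Figure D3:**
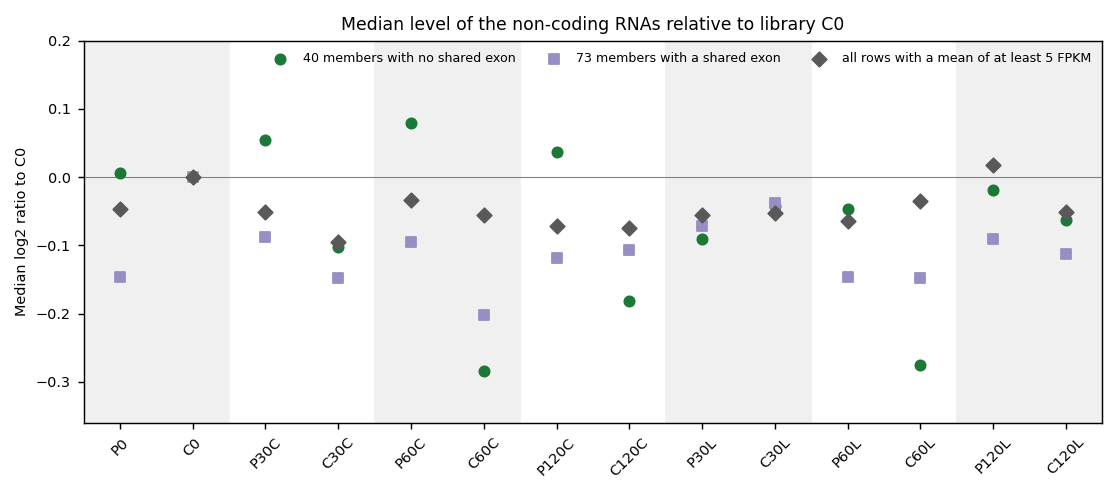
Median log2 ratio of FPKM to library C0 (y axis) in each of the 14 libraries (x axis, primed left of control in each pair) for the 40 members with no shared exon, the 73 with a shared exon and all rows with a mean of at least 5 FPKM. The 40 members have medians of -0.28 in C60C and -0.27 in C60L, below every other library, while those of all rows lie between -0.10 and 0.02.

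The largest priming effect of a member with no shared exon in cold was that of AT3G15536 (chr3:5260723-5261322, 495 bases). Primed plants had 2.34 FPKM before the trigger and 22.9, 14.9 and 6.18 FPKM at the 3 times of cold, against 1.93 FPKM and 5.67, 3.79 and 6.14 FPKM in control plants. The P/C ratio was 2.02 (counting interval 1.65 to 2.42) on the log2 scale at 30 min, 1.98 (counting interval 1.48 to 2.47) at 60 min and 0.01 (counting interval -0.47 to 0.51) at 120 min. The primed values at 30 and 60 min of cold were above all other 12 libraries, of which the highest had 6.53 FPKM. In light primed plants had 5.66, 3.18 and 3.71 FPKM and control plants 3.07, 3.4 and 6.53 FPKM. With a mean of 6.39 FPKM it reached the mean of 5 FPKM through P30C and P60C. Its priming effect in cold is thus partly set by how the members were chosen.

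Further members higher in primed plants in cold by the rule for named genes were AT5G01765, AT2G26355 and AT1G10682, besides AT5G03285 and AT2G14878. AT1G10682 had 19.1 FPKM before the trigger and 18.4, 19.9 and 15.98 FPKM in cold in primed plants, against 24.7 FPKM and 9.78, 11.7 and 15.3 FPKM in control plants. It was past the threshold at 30 and 60 min. AT2G26355 had 14.04, 15.4 and 13.6 FPKM in primed plants in cold, against 8.73, 7.53 and 12.4 FPKM in control plants, and passed the threshold at 30 and 60 min. AT5G01765, whose exon bases are all shared and whose main partner AT5G10540 lies on the same strand, had 14.8, 11.5 and 2.56 FPKM in primed and 13.3, 3.26 and 1.71 FPKM in control plants, past the threshold at 60 min only.
On the lower side in cold were AT2G07475, AT5G53048, AT3G02305, AT2G30362, AT4G07815 and AT4G09695. AT5G53048 had 4.07, 3.34 and 3.35 FPKM in primed plants, against 5.59, 7.52 and 4.29 FPKM in control plants. Its partner AT5G53050, with which it shares 48.5% of its exon bases, was lower in primed plants too, with 41.9, 50.2 and 52.1 FPKM in primed and 65.1, 89.2 and 69.6 FPKM in control plants, past the threshold at 30 and 60 min. AT3G02305, antisense to the lycopene cyclase gene LYC, had 9.75, 9.75 and 9.08 FPKM in primed plants, against 11.9, 14.3 and 16.1 FPKM in control plants, and AT4G07815 had 3.26, 5.62 and 3.27 FPKM in primed plants, against 5.02, 8.07 and 4.02 FPKM in control plants. All but AT2G30362 passed the threshold at a single time. Of the lower 6 only AT4G07815 shares no exon with another gene.

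In light the members highest in primed against control plants were AT2G08665, AT5G01815, AT5G03285, AT5G06385, AT1G67365 and AT5G03395. AT1G67365, which shares 22.9% of its exon bases with the meiotic gene ASY1 on the opposite strand (0 to 0.16 FPKM in the 14 libraries), had 2.26 FPKM before the trigger and 19.8, 9.79 and 4.74 FPKM in light in primed plants, against 2.49 FPKM and 9.28, 6.86 and 3.56 FPKM in control plants. In cold it stayed between 2.24 and 2.62 FPKM, so that it reached the mean of 5 FPKM through its light libraries and its rise there is partly set by that choice. AT5G06385 had 16.9, 23.99 and 12.7 FPKM in primed plants in light, against 10.2, 8.38 and 10.9 FPKM in control plants. AT5G03395 (chr5:7421048-7421568) had 9.17, 10.6 and 11.2 FPKM in primed and 7.17, 6.1 and 7.58 FPKM in control plants.
The only member on the lower side under this rule was AT4G06985, antisense to ATERDJ2B, with 9.6, 10.3 and 8.33 FPKM in primed plants and 13.8, 12.2 and 12.6 FPKM in control plants, past the threshold at 120 min only.

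Members that overlap another gene, mostly a coding one, are set beside it. A partner row was found for 67 members, and it lies on the opposite strand in 61. The member had the higher mean in 33, and the partner had a mean under 2 FPKM in 12. In light 76 calls of members with a listed partner were made. The partner passed the threshold in the same direction in 26, not at all in 37 and in the opposite direction in 5, and had under 0.5 FPKM in C0 or P0 in 8. In cold it was 13, 50 and 3 of 72, with 6 of low partners. In the priming effect the partner passed in the same direction in 2 of 34 calls in cold and in 4 of 44 in light. Over all rows the share past the threshold per ratio and direction was 3.72% to 15.8% in light and 3.03% to 7.63% in cold. For the priming effect it was 0.353% to 2.18% in cold and 0.509% to 3.51% in light. Whether partners moved with members more than other genes was not tested.

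Several pairs moved together. AT3G07365 (chr3:16984335-16984787, 453 bases) lies wholly antisense to HSP17.4, a small heat shock protein gene, and failed the filter with 0.14 FPKM in P0 and 0.14 FPKM in C0. In light it had 101, 326 and 351 FPKM in primed plants, against 31.96, 251 and 153 FPKM in control plants. HSP17.4 itself had 109.7, 358 and 366 FPKM in primed plants, against 37.3, 191 and 141 FPKM in control plants. In the 8 other libraries neither exceeded 0.48 FPKM. The rows of the 2 genes differed by less than 1.5-fold in each light library, so that this member is not told apart from HSP17.4.
AT4G05910, antisense to the heat shock factor gene HSFB2B, had 56.8, 8.24 and 2.17 FPKM in primed plants in light, against 36.2, 14.6 and 2.43 FPKM in control plants. HSFB2B had 48.96, 8.38 and 3.28 FPKM in primed and 33.1, 8.02 and 3.08 FPKM in control plants. In cold the member was listed at 0 in C60C, P120C and C120C. The plot of pairs by library shows both rows.
AT4G08785, antisense to ADR1-L1, an immune receptor gene, was past the threshold on the higher side at each time of cold, and is 1 of the 9 members under 5 FPKM in both C0 and P0. It had 1.91 FPKM at the start and 4.37, 7.06 and 17.3 FPKM in cold in control plants, while ADR1-L1 had 8.35 FPKM and 10.8, 14.2 and 25.5 FPKM. Primed plants had 4.51, 9.18 and 20.3 FPKM of the member in cold.

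Further members with a shared exon follow. AT5G01815, antisense to AT5G10695, had 3.92 FPKM at the start, 19.2, 24.7 and 10.04 FPKM in cold and 55.95, 64.9 and 1.98 FPKM in light in control plants. AT5G10695 had 8.27, 9.6 and 2.13 FPKM in primed plants in light, against 4.32, 2.63 and 1.26 FPKM in control plants. The light peak of the member was 187 FPKM in P30L, against 55.95 FPKM in C30L, a log2 ratio of 1.74 (counting interval 1.62 to 1.87). It too was under 5 FPKM in both C0 and P0.
AT3G22121, antisense to CWLP, had 425, 540.0 and 647 FPKM in primed plants in cold, against 424, 458 and 762 FPKM in control plants. Its share in the summed FPKM of the pair was 99.2% to 100.0%. In light it had 279, 232 and 272 FPKM in primed plants, against 365, 233 and 325 FPKM in control plants. With 465 FPKM in C0, C120C was past the threshold above C0 and C60L below it.
AT2G30362, antisense to the kinase gene SIP4, was highest in C60L, as was its partner, and reached the mean of 5 FPKM through that library. It had 5.14, 3.37 and 5.52 FPKM in primed plants in light, against 4.04, 20.2 and 4.04 FPKM in control plants. SIP4 had 9.28, 16.2 and 8.57 FPKM in primed and 7.38, 27.1 and 17.2 FPKM in control plants.
AT3G03265 shares 10.3% of its exon bases with DELTA-TIP, the gene of a tonoplast water channel, and fell step by step in cold. It had 17.2 FPKM at the start and 9.81, 7.93 and 2.32 FPKM in cold in control plants, and 16.3 FPKM and 10.4, 8.69 and 2.57 FPKM in primed plants. AT1G06227 had 7.71 FPKM at the start, 3.62, 3.79 and 2.74 FPKM in cold and 7.95, 12.2 and 11.1 FPKM in light in control plants.

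In some pairs the member was at or near 0 in single libraries while the partner was not. AT2G08665 (chr2:14522522-14523568) lies antisense to LHB1B2, a light-harvesting protein gene of the photosystem antenna. In cold it had 55.3, 87.7 and 46.4 FPKM in primed plants, against 67.8, 0.11 and 84.1 FPKM in control plants. In light it had 78.6, 45.4 and 63.5 FPKM in primed plants, against 31.3, 13.7 and 0.11 FPKM in control plants. LHB1B2 lay between 6728 and 10384 FPKM in all 14, and the member was at most 0.889% of the pair.
AT4G06665, antisense to the chloroplast amylase gene CT-BMY, had 2.77, 0 and 0 FPKM in primed plants in cold, against 0.76, 40.6 and 31.7 FPKM in control plants. CT-BMY had 233, 336 and 819 FPKM in primed and 291, 387 and 911 FPKM in control plants. Of 52 pairs in which at least 50% of the member's exon bases were shared the member's share of the pair spanned at least 30 percentage points over the libraries in 15. AT2G08470, antisense to AT2G31790, was listed at 0 FPKM in P30L and at 7.75 FPKM in C30L, and AT3G09275, antisense to AT3G59940, at 0 FPKM in P30L and 5.1 FPKM in C30L. How the counting divided reads within these pairs was not tested, and a row listed at 0 gives no fold.

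**Figure D4:**
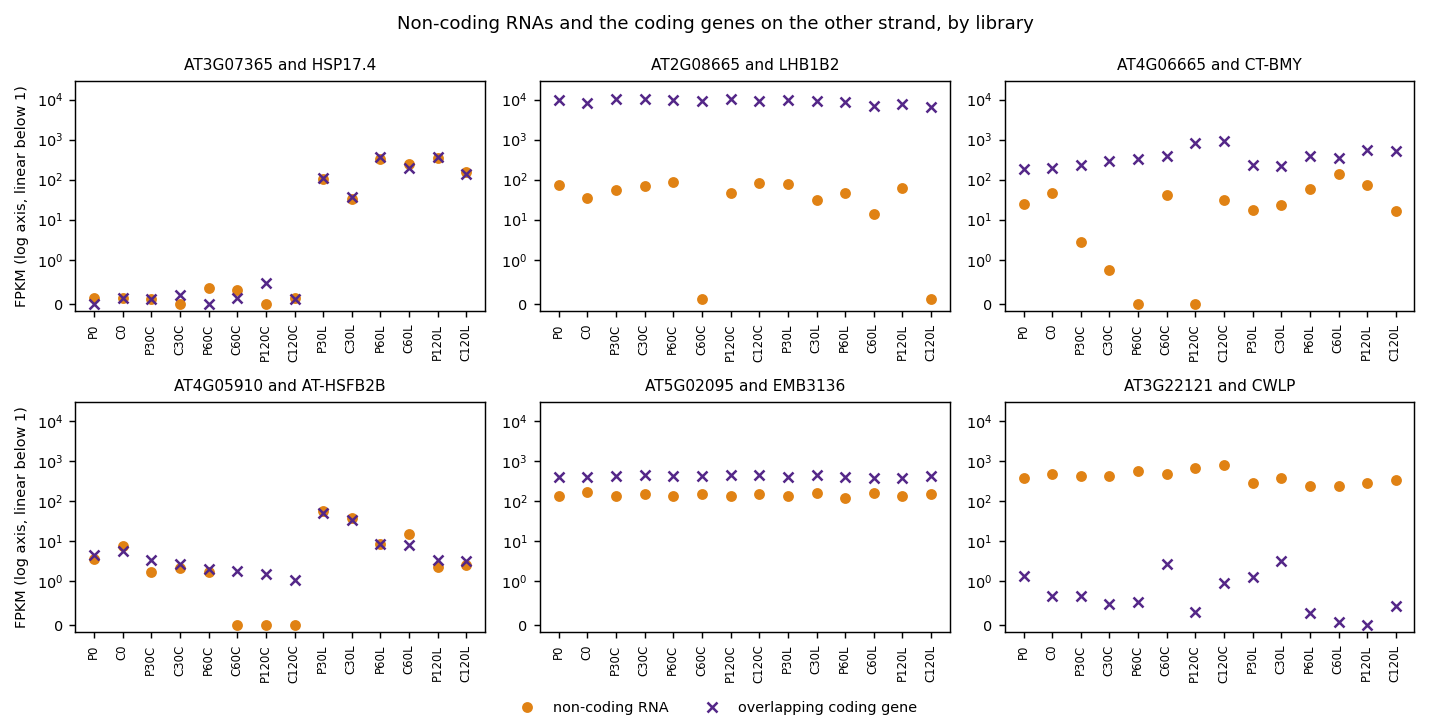
FPKM (y axis, logarithmic and linear below 1) of 6 non-coding RNAs (orange circles) and the coding genes on the other strand (purple crosses) in the 14 libraries (x axis, primed left of control in each pair). AT3G07365 and HSP17.4 climb together in light, AT2G08665 and AT4G06665 drop to 0.11 FPKM or less in single libraries, and AT5G02095 stays below EMB3136 in every library.

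The mitochondrial rRNAs rrn26 and rrn18, chosen after their values were seen, were highest in P30L. rrn18 had 104 FPKM in P30L, against 25.5 FPKM in C30L, and 12.7 to 25.5 FPKM in the 13 other libraries. rrn26 had 74.3 FPKM in P30L, against 35.2 FPKM in C30L, and 20.3 to 35.2 FPKM in the 13 others. P30L also had the fewest rows at 0, 4010 against 4500 to 5068 in the other libraries, and the largest estimated depth. The libraries had been depleted of rRNA, and the part of that step in these values was not tested. Without P30L the priming effect in light had 21 members higher and 18 lower.

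The promoters of the members, 250 bases before to 50 after the annotated start, were searched on both strands for 9 short motifs. CCGAC, the core bound by CBF factors in cold, was found in 24 of 112 members (21.4%) and in 12 of 38 with no shared exon (31.6%), against 15.4% of 27850 promoters. CACGTG, the G-box, was found in 9 (8.04%), 7 of them with no shared exon, against 7.63%. AAATATCT, the evening element, was found in 2 (1.79%, all 5.48%), and GAANNTTC, a heat shock element unit, in 11 (9.82%, all 11.6%). AAACCCTA was found in 8 (7.14%, all 5.88%), GNATATNC in 7 (6.25%, all 6.12%), ACGCGT in 2 (1.79%, all 2.24%), CGCGT, which also lies in each ACGCGT, in 4 (3.57%, all 9.10%) and TCCCACATC in 0 (all 0.442%). These are matches of letters with no test. The promoters of 2 members with no shared exon follow, MIR163 for its rise in cold and AT5G03285 for its rise in light, with matches in capitals.
MIR163, chr1:24883816-24884115, plus strand: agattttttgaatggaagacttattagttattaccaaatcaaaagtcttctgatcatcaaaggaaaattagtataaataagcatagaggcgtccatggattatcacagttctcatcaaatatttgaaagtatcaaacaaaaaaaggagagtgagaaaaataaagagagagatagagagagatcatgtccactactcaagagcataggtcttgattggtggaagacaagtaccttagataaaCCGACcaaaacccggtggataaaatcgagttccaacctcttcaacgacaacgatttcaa
AT5G03285, chr5:793264-793563, plus strand: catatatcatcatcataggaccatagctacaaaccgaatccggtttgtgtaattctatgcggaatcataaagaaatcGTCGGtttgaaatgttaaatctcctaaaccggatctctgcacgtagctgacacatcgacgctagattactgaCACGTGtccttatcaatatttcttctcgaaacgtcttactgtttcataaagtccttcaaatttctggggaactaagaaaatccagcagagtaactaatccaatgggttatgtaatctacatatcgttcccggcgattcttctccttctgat
MIR163 holds CCGAC, and AT5G03285 holds CCGAC on the minus strand and CACGTG.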

How the data were processed

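RNA from pooled rosettes was captured on oligo(dT) beads, depleted of rRNA and sequenced as paired ends on a BGI-Seq-500. The authors aligned reads to TAIR10 (Bowtie2 and RSEM in the methods, HISAT2 2.1.0 in the submitters' processing notes) and deposited 1 table of FPKM per gene and library, used here without scaling or pseudocount. Whether counting used the strand is not given in the sources used here. All 27861 gene IDs matched the TAIR10.1 annotation, which gave coordinates, overlaps and sequences.

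The members and lists were chosen with earlier results of these data known. Named were the 8 highest members, up to 6 per family of ratios and direction with the largest mean log2 ratio (10 FPKM in at least 1 library, same sign at all times, 1.5-fold at 1 or more), known RNA classes, the 4 steadiest and those failing 0.5 FPKM in C0 or P0, in all 51 members. Others are marked. The gene that overlaps 1 member is not reported here. Fragments were estimated from FPKM, length and the step between low values, and 95% intervals of ratios are exact binomial. With depths of 24.5 to 38.8 M fragments, 9 of 366 calls had intervals that include 0. The calls were tested on simulated data. Near-identical copies came from BLAST+ 2.17.0, and the rest from Python 3.11.15 with NumPy 2.4.6, pandas 2.3.3 and SciPy 1.17.1. As alternatives, counts were repeated at 2-fold, with 1 FPKM added to each value, with minimum means of 10 and 2 FPKM, 2 scalings, no filter, only members with no shared exon or over 200 bases, responses of primed plants and ratios from each group's start.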

Additional observations from a re-analysis of the deposited data

Results flagged for a closer look

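The 51 named members were searched for P/C ratios above 1 throughout 1 trigger and below 1 throughout the other. AT4G13495, which holds the miR850 hairpin and part of that of miR863, was the only member found. Every P/C ratio of this locus was above 1 in cold and below 1 in light, which is how it was picked. The mean log2 ratio of primed to control plants was 0.16 in cold and -0.13 in light, none of the 6 ratios was past 1.5-fold, and the difference between cold and light was not tested. The locus had 440.0, 402 and 347 FPKM in primed plants at the 3 times of cold, against 396, 359.9 and 311 FPKM in control plants, and 257, 196 and 240.5 FPKM in primed plants in light, against 282, 219 and 260.1 FPKM in control plants.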

How the results depend on the processing

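Of 108 alternative counts 62 stayed within 1.5 times the reported one and 46 did not. Counts were compared as numbers, also where an alternative changed how many members were counted, so a count can move while its share does not. A 2-fold threshold gave 9 members higher and 20 lower in the cold response, 14 and 26 in the light response, 1 and 3 in P0/C0, 14 and 4 in the priming effect in cold and 14 and 11 in that in light. A minimum mean of 10 FPKM gave 9 and 23 in the cold response, 13 and 26 in the light response, 3 lower in P0/C0, 14 and 6 in the priming effect in cold and 14 and 6 in light, and one of 2 FPKM gave 49 and 100, 60 and 109, 13 and 29, 70 and 38, and 66 and 59 in the same order. These minima change the number of members counted, from 113 to 65 at 10 FPKM and to 243 at 2 FPKM. The share lower in the cold response was 35.4% at 10 FPKM and 41.2% at 2 FPKM, against 36.3% as reported. The share lower in P0/C0 was 4.62% and 11.9%, against 10.6%. The 40 members with no shared exon gave 4 and 14, 11 and 17, 0 and 1, 10 and 1, and 13 and 3. Both scalings gave 5 higher in P0/C0. The largest shift by reference gene scaling was -0.18 (log2, P120L). Primed plants had 25 lower in cold, and counting from each group's start gave 41 higher in the priming effect in cold. Without the 60 min libraries, an alternative chosen after seeing the data, the priming effect had 14 higher in cold, and 18 higher and 13 lower in light. The pseudocount, the omitted filter and the length minimum moved no count by over 1.5 times, nor did leaving out P30L, which was also chosen after seeing the data. No paired analysis was possible because no condition has a second library, so that replicate numbers pair nothing. Depth limits the short and low members, as 21 members had a median of under 100 estimated fragments.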
